A study of Homo sapiens with 18 samples.

Results

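The mitochondrial chaperones and proteases were described here as 10 genes of 45372 gene symbols measured, chosen by their known function. The 5 chaperones were *HSPD1*, *HSPE1*, *HSPA9*, *DNAJA3* and *TRAP1*, and the 5 proteases or protease subunits were *LONP1*, *CLPP*, *CLPX*, *YME1L1* and *AFG3L2*. RNA was sequenced from MV4-11 and THP1, established acute myeloid leukemia (AML) cell lines with a *KMT2A* rearrangement, of which MV4-11 also carries an internal tandem duplication of *FLT3*. Each line received DMSO, or 50 nM IACS-010759 (IACS), an inhibitor of respiratory complex I, for 8 h or 24 h. There were 3 libraries in each of the 6 groups, which the labels call independent replicates. The exposure time of the DMSO cells was not given, and the 3 DMSO libraries of a line were the reference for both IACS times. Each line stands for 1 patient's leukemia, and the cells were grown in culture with no host or stroma.

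These proteins keep the proteins of the mitochondrial matrix and inner membrane folded and remove those that cannot be folded. HSP60 and HSP10, encoded by *HSPD1* and *HSPE1*, form a closed chamber in which imported proteins fold, and mortalin (*HSPA9*) pulls precursors through the inner membrane and holds them unfolded with its co-chaperone (*DNAJA3*). In the mitochondrial unfolded protein response, mammalian cells under mitochondrial proteotoxic stress raise the mRNA of several of these genes, and the transcription factors ATF4, ATF5, CHOP and HSF1 have been named as regulators. The comparison of IACS with DMSO asks whether these mRNAs differ once complex I is inhibited.

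*HSPD1* and *HSPE1* are shown first by sequence because they are neighbours that share a promoter region on chromosome 2. In the RefSeq promoter windows (GRCh38.p14, 250 bases before to 50 after a transcript start), *HSPE1* starts at position 197500379 on the plus strand and *HSPD1* at 197500274 on the minus strand. The starts lie 105 bases apart and the windows share 204 bases. A second *HSPD1* start lies 539 bases from that of *HSPE1*, at 197499840. Windows were given for 8 of the 10 members, with *CLPP* and *YME1L1* not among them. The *HSPE1* window and the second *HSPD1* window are printed 5′ to 3′ on the strand of the gene, with matches to the motifs named after them in capitals.
HSPE1, chr2:197500129-197500428, plus strand: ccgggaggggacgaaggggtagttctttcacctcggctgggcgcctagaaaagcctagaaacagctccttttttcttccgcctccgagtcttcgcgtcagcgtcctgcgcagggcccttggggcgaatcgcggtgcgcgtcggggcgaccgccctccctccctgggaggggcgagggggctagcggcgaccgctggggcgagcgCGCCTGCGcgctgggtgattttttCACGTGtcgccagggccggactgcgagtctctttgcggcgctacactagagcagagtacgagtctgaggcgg
HSPD1 second start, chr2:197499791-197500090, minus strand: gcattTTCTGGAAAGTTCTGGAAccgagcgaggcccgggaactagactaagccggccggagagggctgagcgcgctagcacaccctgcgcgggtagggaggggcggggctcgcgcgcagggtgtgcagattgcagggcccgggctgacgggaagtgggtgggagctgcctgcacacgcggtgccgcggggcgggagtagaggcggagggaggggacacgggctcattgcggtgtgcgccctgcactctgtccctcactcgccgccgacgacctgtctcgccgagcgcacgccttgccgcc

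In the *HSPE1* window the capitals mark 1 match to CGCANGCG, the core of the NRF1 element, and 1 E-box (CACGTG), read on both strands. Both matches lie in the stretch shared with the first *HSPD1* window, so they are the same bases in each. In the second *HSPD1* window they mark 3 overlapping matches to the heat shock element cores GAANNTTC (1) and TTCNNGAA (2). No match to TGATGNAA, the core of the ATF4 and CHOP element, was found in these windows, which says only that these letters are not there. Over 34796 different RefSeq windows of the same length, CGCANGCG was found in 9.995%, CACGTG in 7.20%, GAANNTTC in 6.79%, TTCNNGAA in 7.76% and TGATGNAA in 3.63%. A match is a description of letters and not a site of binding.

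The values are in TPM, a length-corrected share of all transcripts of a library that the authors computed per gene. Whole reads could be recovered from them, from 19917766 to 26504512 a library. *HSPD1* drew between 10242 and 18155 of these, and *CLPP*, with the fewest, between 539 and 1769, so counting error was at most 4.31% for any member in any library. All 10 members passed the filter of a mean of at least 1 TPM in both lines. Of 8 myeloid markers, 7 or more reached 1 TPM in each group, and *CD3E*, *HBB* and *EPCAM*, markers of other cells, averaged at most 0.0104 TPM in the DMSO groups. The summed myeloid markers ran from 4290 to 7682 TPM in MV4-11 and from 1135 to 1567 TPM in THP1. Most of this sum was *LYZ*, which averaged 5372 TPM in MV4-11 and 986 TPM in THP1 with DMSO. The other markers did not all follow it. With DMSO *CD33* averaged 61.1 TPM in MV4-11 and 31.8 TPM in THP1, but *ITGAM* 0.838 and 25.1 TPM. In bulk RNA, fewer cells of a kind and less RNA per cell cannot be told apart. Between 39.6% and 60.1% of all TPM lay on 5 noncoding RNAs (*RPPH1*, *RMRP*, *RN7SK* and the pair *RN7SL1* and *RN7SL2*), and the members held from 0.0541% to 0.109%. In 3 THP1 libraries, the third of each group, the noncoding RNAs held 55.8%, 60.0% and 60.1%, and the members had their lowest values there.

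In MV4-11 the chaperonin pair had the lowest log2 fold changes of the members, without passing the test over all genes given further on. *HSPD1* stood at 364, 361 and 313 TPM with DMSO, at 273, 266 and 299 TPM after 8 h, and at 253, 255 and 280 TPM after 24 h of IACS. All 6 IACS libraries lay below all 3 DMSO libraries. The log2 fold change, here and throughout on the scale of TPM + 1, was -0.30 ± 0.12 (SE, n = 3 against 3) at 8 h and -0.39 ± 0.12 at 24 h. *HSPE1* stood at 120, 115 and 104 TPM with DMSO, at 79.0, 76.3 and 113 TPM after 8 h, and at 66.0, 68.3 and 103 TPM after 24 h. Its 24 h values did not overlap with DMSO, its 8 h values did, and the third IACS library was the high one at both times. The log2 fold changes of *HSPE1* were -0.35 ± 0.19 at 8 h and -0.54 ± 0.19 at 24 h. Without the third library of the 24 h group the value was -0.74. The 5 noncoding RNAs held 39.6% and 42.9% of TPM in the third 8 h and 24 h libraries, the lowest of their groups, and their part in these values was not tested beyond the rescaling described after the calls.

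**Figure D1:**
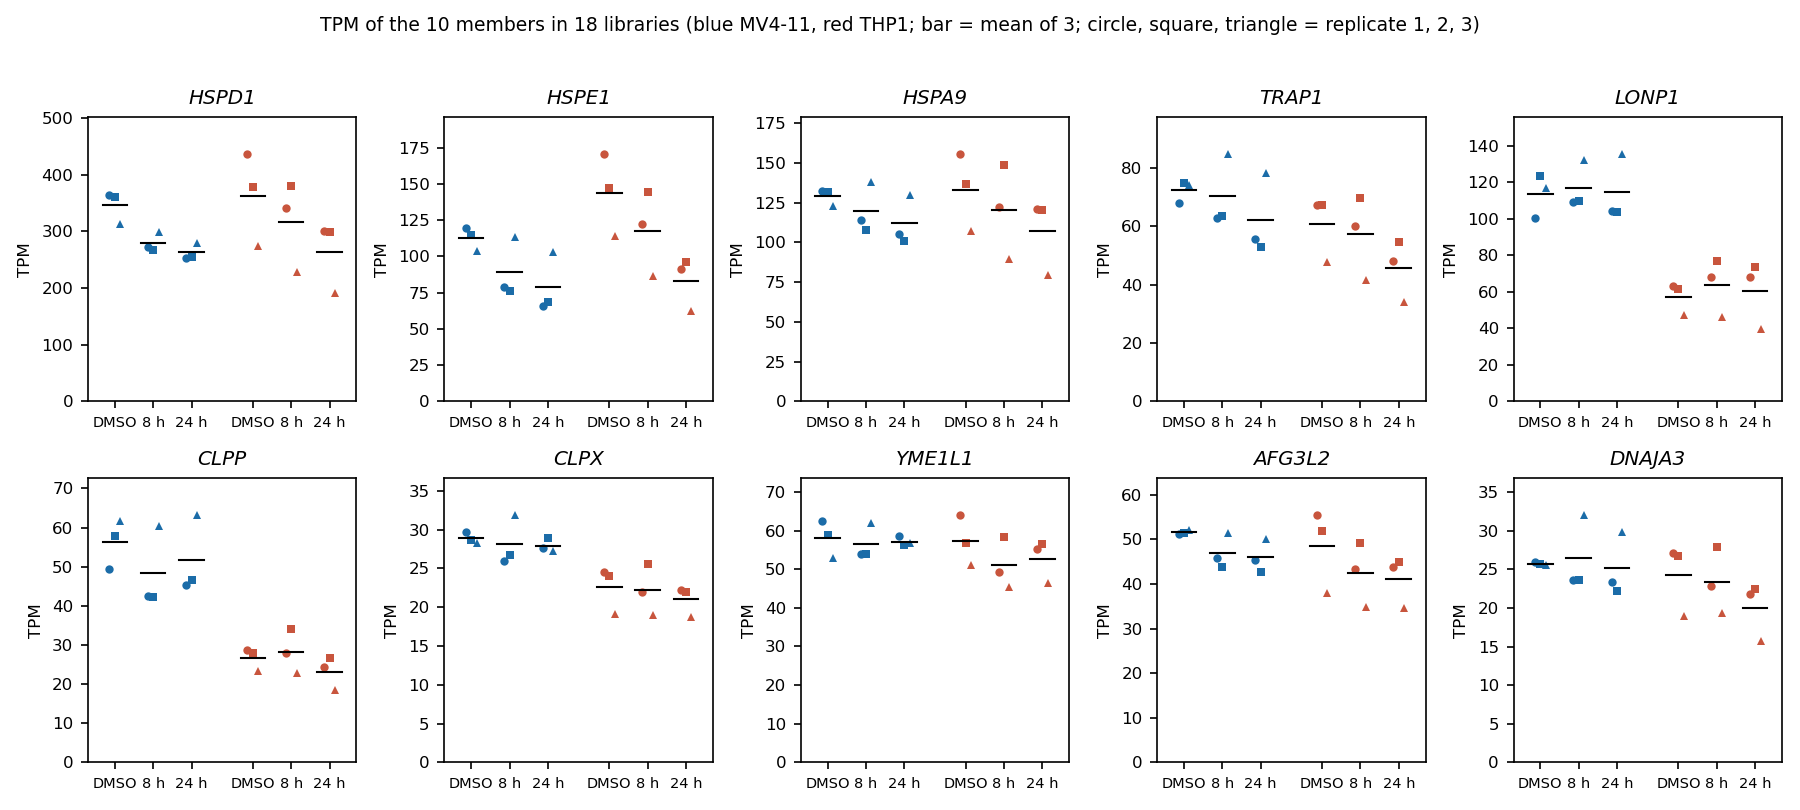
TPM of each of the 10 members (y axis, starting at 0) in the DMSO, 8 h and 24 h groups of MV4-11 (blue) and THP1 (red), with 1 point per library and a bar at the mean of 3. *HSPD1* and *HSPE1* have lower means after 24 h of IACS in both lines, *LONP1* and *CLPP* are lower in THP1 than in MV4-11 in every group, and the third THP1 library (triangle) is the lowest of its group in each panel.

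In THP1 the same pair had its lowest means after 24 h. *HSPE1* stood at 171, 147 and 114 TPM with DMSO, at 122, 145 and 86.6 TPM after 8 h, and at 91.0, 95.9 and 62.6 TPM after 24 h. The 24 h values lay below all DMSO values, while those at 8 h overlapped. The log2 fold change was -0.79 ± 0.22 at 24 h, which is 0.579 of the DMSO level, and -0.30 ± 0.22 at 8 h. Without the third 24 h library the former was -0.60. *HSPD1* stood at 436, 377 and 274 TPM with DMSO, at 341, 381 and 228 TPM after 8 h, and at 300, 299 and 191 TPM after 24 h. These groups overlapped at both times, and the log2 fold changes were -0.20 ± 0.24 and -0.46 ± 0.24. The first ran from -0.39 without the third DMSO library to 0.02 without the third 8 h library, and the second from -0.65 without the third DMSO library to -0.25 without the third 24 h library. The median of all 13928 genes tested was itself -0.12 at both times in THP1, so relative to it *HSPE1* stood at -0.67 and *HSPD1* at -0.35 after 24 h. In MV4-11 the medians of 13542 genes were 0.06 at 8 h and 0.08 at 24 h, and the 24 h values relative to the median were -0.61 for *HSPE1* and -0.47 for *HSPD1*. Ranked from the lowest log2 fold change at 24 h, *HSPE1* was at place 78 in MV4-11 and at place 84 in THP1.

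A call was an adjusted p under 0.05 from limma over all genes tested together with a fold change above 1.5 in either direction, which is the fold threshold of the study. By this rule, on the deposited scale and with no replicate block, 0 of the 10 members were called under IACS in either line at either time. With the block or on other scales *HSPE1* was called at 24 h in some fits, which are given after this paragraph. Few genes were called at all. The called share of all genes was 0.0148% in MV4-11 at 8 h, 0.0886% in MV4-11 at 24 h, 0.0144% in THP1 at 8 h and 0.0431% in THP1 at 24 h. The lowest limma adjusted p of a member was 0.22 (*HSPD1*) in MV4-11 at 24 h and 0.42 (*HSPE1*) in THP1 at 24 h. With an unadjusted limma p under 0.05 and no fold threshold, 1 member was lower in MV4-11 at 8 h (*HSPD1*), 2 at 24 h (*HSPD1* and *HSPE1*), 0 in THP1 at 8 h and 1 at 24 h (*HSPE1*). The shares of all genes lower by that rule were 0.997%, 2.36%, 1.86% and 7.12%. The members whose IACS values all lay below the DMSO values were 1 (*HSPD1*) in MV4-11 at 8 h, 3 (*HSPD1*, *HSPE1* and *AFG3L2*) at 24 h, 0 in THP1 at 8 h and 1 (*HSPE1*) at 24 h. Over all genes these shares were 1.65%, 5.26%, 4.06% and 10.2%. Kruskal-Wallis with Dunn's tests, the tests of the study, were also run with no adjustment over genes and the same fold threshold, and Dunn's result was used only where the Kruskal-Wallis test passed 0.05. They called 0 members, where the shares of all genes called were 0.0665% and 0.406% in MV4-11 and 0.0431% and 0.165% in THP1 at 8 h and 24 h. By Dunn's test alone 1 member was called (*HSPE1* in THP1 at 24 h), where the shares were 0.258%, 1.41%, 0.258% and 1.18%.

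The call for *HSPE1* depended on the scale and on the replicate block. In THP1 the replicate numbers paired the 24 h libraries with the DMSO libraries by the criterion given with the processing, and the log2 ratios of *HSPE1* within a number were -0.91, -0.62 and -0.86. With the number as a block the log2 fold change was -0.79 ± 0.10, with a limma adjusted p of 0.0018, so *HSPE1* was the 1 member called lower, where 1.73% of all genes were. Under the block *HSPD1*, *TRAP1* and *HSPA9* had limma adjusted p of 0.0099, 0.012 and 0.049, each at a log2 fold change under the fold threshold. With a limma adjusted p under 0.05 and no fold threshold, 1546 of all 13928 genes were lower in that fit. The TPM were rescaled with median-of-ratios size factors, which set the typical gene equal between libraries, or were recomputed without the 5 noncoding RNAs. With size factors *HSPE1* stood in THP1 at 148, 138 and 131 scaled TPM with DMSO and at 95.9, 91.9 and 80.0 scaled TPM after 24 h. The groups did not overlap, but the share of all genes without overlap was not counted on this scale. The SD with DMSO was 8.44 scaled TPM, against 28.5 TPM on the deposited scale. The log2 fold change was -0.64 ± 0.10, with a limma adjusted p of 0.021, so 1 member was called lower where 0.328% of all genes were. Without the 5 noncoding RNAs it was -0.65 ± 0.13 with an adjusted p of 0.045, against 0.229% of genes called lower. Over the 21 alternatives, left-out libraries included, the value ran from -0.94 to -0.60 and the limma adjusted p from 0.00014 to 1.00.

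In MV4-11 *HSPE1* stood at 112, 111 and 107 scaled TPM with DMSO, at 82.6, 74.0 and 90.9 after 8 h, and at 60.3, 62.7 and 97.2 after 24 h. Neither IACS group overlapped with DMSO on this scale, for which the share of all genes without overlap was not counted. At 24 h the log2 fold change was -0.61 ± 0.16 with a limma adjusted p of 0.080, and 0 members were called lower, where 0.164% of genes were. With the replicate block added on this scale the limma adjusted p was 0.043, and *HSPE1* was the 1 member called lower. Of all 13402 genes, 31 were called lower by that fit. The numbers did not meet the pairing criterion for this comparison. Without the 5 noncoding RNAs, and with no block, the log2 fold change was -0.59 ± 0.13 with a limma adjusted p of 0.049. *HSPE1* was then the 1 member called lower, where 0.155% of genes were. Over the 21 alternatives its value ran from -0.74 to -0.42 and its limma adjusted p from 0.021 to 0.68. *HSPD1* in MV4-11 at 24 h had a limma adjusted p of 0.035 with size factors, at a log2 fold change of -0.47 ± 0.09, which is under the fold threshold. Its adjusted p ran from 0.013 to 0.65 over its alternatives. With size factors and no fold threshold, 164 of all 13402 genes were lower at a limma adjusted p under 0.05.

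**Figure D2:**
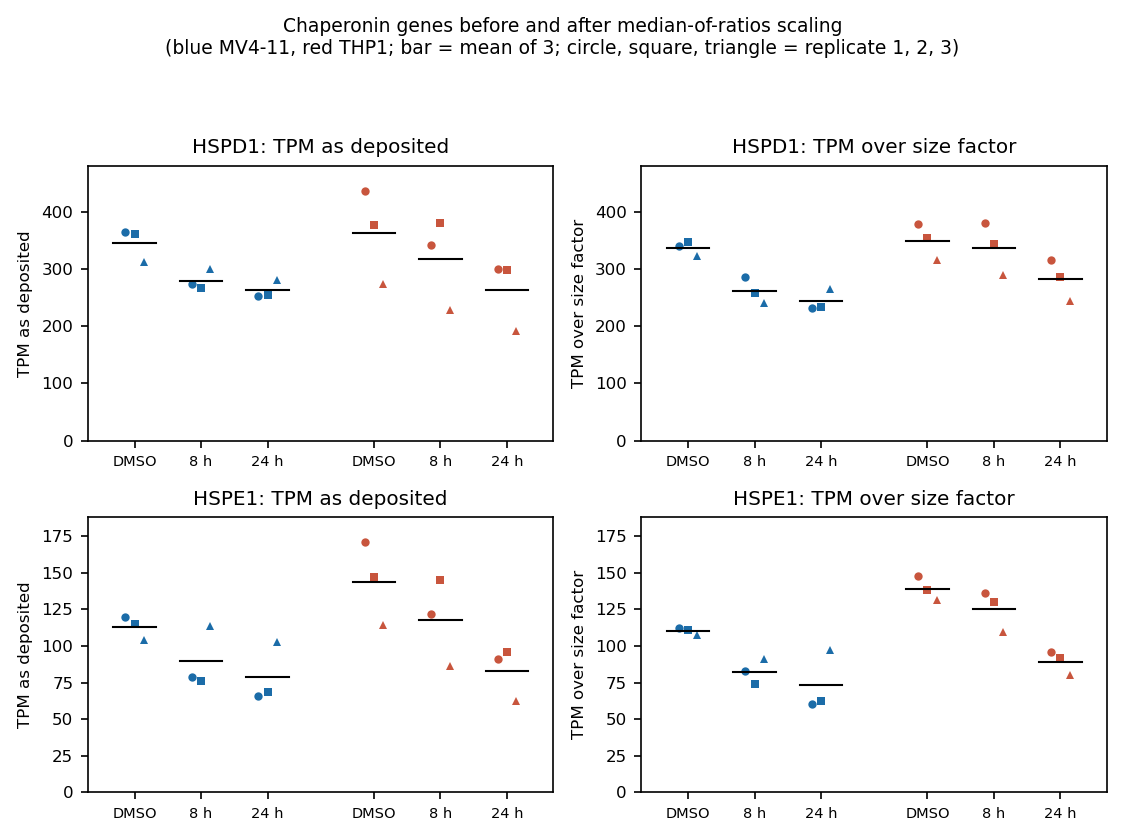
*HSPD1* and *HSPE1* as deposited TPM (left) and as TPM divided by the median-of-ratios size factor of the library (right), both axes starting at 0, with 1 point per library and a bar at the mean of 3. On the scaled axis *HSPE1* after 24 h (80.0 to 95.9 in THP1 and 60.3 to 97.2 in MV4-11) lies below the DMSO libraries of the same line (131 to 148 and 107 to 112).

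The pair shares some of its annotated sequence with other genes. In GENCODE v44 on GRCh38, *HSPE1* (chr2:197500140-197503449, plus strand) lies inside the outer bounds of *HSPD1* (chr2:197486584-197516737, minus strand), and 135 exonic bases belong to both, which is 7.41% of those of *HSPE1*. The strand setting of the counting was not given, and the library kit does not mark strand. Whole reads of *HSPD1* were recovered at a length of 4123 bases, not the 7629 of GENCODE v44, so the counted overlap may differ. The readthrough gene *HSPE1-MOB4* holds 192 of the exonic bases of *HSPE1*. It was listed between 0 and 10.1 TPM in the 18 libraries, with at most 102 reads. The pseudogene copies of *HSPD1* and *HSPE1* that were sought were not among the symbols measured, so their reads could not be told apart. The ratio of *HSPD1* to *HSPE1* TPM averaged 3.06 with DMSO and 3.43 after 24 h in MV4-11, and 2.51 and 3.16 in THP1. In THP1 the ratio ran from 2.41 to 2.57 with DMSO and from 3.06 to 3.30 after 24 h, so the libraries did not overlap.

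In MV4-11 at 24 h the log2 fold changes of the HSP70 system and TRAP1 were smaller in size than those of the pair. In THP1 *TRAP1* was close to *HSPD1*, well within their standard errors. Differences between members were not tested. *HSPA9* averaged 129 ± 5.34 TPM (SD, n = 3) with DMSO, 120 ± 15.8 after 8 h and 112 ± 15.5 after 24 h in MV4-11, and 133 ± 24.4, 120 ± 29.8 and 107 ± 23.9 TPM in THP1. All its groups overlapped, and its log2 fold changes at 24 h were -0.21 ± 0.13 and -0.32 ± 0.22. *TRAP1*, the mitochondrial relative of HSP90, averaged 72.3 ± 3.81 TPM with DMSO and 62.2 ± 13.9 after 24 h in MV4-11, and 60.7 ± 11.3 and 45.5 ± 10.5 TPM in THP1. Its log2 fold changes at 24 h were -0.23 ± 0.16 and -0.42 ± 0.23. Of the exonic bases of *TRAP1*, 28.5% are also covered by *DNASE1* on the other strand. *DNAJA3* was the lowest chaperone, from 15.7 to 32.0 TPM over the 18 libraries, and its log2 fold changes at 24 h were -0.04 ± 0.15 in MV4-11 and -0.27 ± 0.20 in THP1.

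The proteases are given next. *LONP1*, the soluble matrix protease that degrades oxidised and misfolded proteins, averaged 114 ± 11.99 TPM with DMSO, 117 ± 13.1 after 8 h and 114 ± 18.2 after 24 h in MV4-11. In THP1 it averaged 57.2 ± 8.64, 63.6 ± 15.9 and 60.5 ± 18.4 TPM. Its log2 fold change at 24 h was 0.00 ± 0.14 in MV4-11, with a 95% interval from -0.31 to 0.32, and 0.04 ± 0.25 in THP1, from -0.49 to 0.58. In THP1 it ran from -0.12 without the second 24 h library to 0.32 without the third. *CLPP*, the peptidase of the ClpXP protease, had log2 fold changes of -0.13 ± 0.17 and -0.20 ± 0.18 at 24 h, and *CLPX*, its unfoldase, of -0.05 ± 0.11 and -0.09 ± 0.16. The inner membrane proteases *YME1L1*, facing the intermembrane space, and *AFG3L2*, facing the matrix, had -0.02 ± 0.11 and -0.16 ± 0.11 in MV4-11 and -0.12 ± 0.15 and -0.22 ± 0.18 in THP1, where *YME1L1* stood at 0.03 with size factors. *AFG3L2* stood between 51.3 and 52.2 TPM with DMSO and between 42.6 and 50.0 TPM after 24 h in MV4-11, with no overlap. *AFG3L2* shares 11.7% of its exonic bases in GENCODE v44 with *TUBB6* on the other strand. Its whole reads were recovered at a length of 6624 bases, not the 7133 of GENCODE v44, so the counted overlap may differ.

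The members as a list had medians below that of all genes in MV4-11 at both times and in THP1 at 24 h, and close to it in THP1 at 8 h. Their median log2 fold change in MV4-11 was -0.08 at 8 h and -0.15 at 24 h, beside 0.06 and 0.08 over all genes, and all 10 lay below the all-gene median at both times. In THP1 it was -0.13 at 8 h beside -0.12 over all genes, with 5 of 10 below, and -0.25 at 24 h beside -0.12, with 8 of 10 below. With size factors the medians were -0.14 and -0.22 in MV4-11 and 0.01 and -0.10 in THP1, beside all-gene medians between 0.003 and 0.018. The only members above 0 at 24 h on the deposited scale were *LONP1* in MV4-11 and *LONP1* in THP1. In THP1 the 5 noncoding RNAs had a median log2 fold change of 0.17 at 8 h and 0.13 at 24 h. Both were opposite in sign to the medians of the members and of all genes on the deposited scale. In MV4-11 the noncoding RNAs had -0.08 and 0.003. The mitochondrially encoded genes held from 1.08% to 2.77% of TPM. Their part in the members' values was not tested beyond the rescaling.

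**Figure D3:**
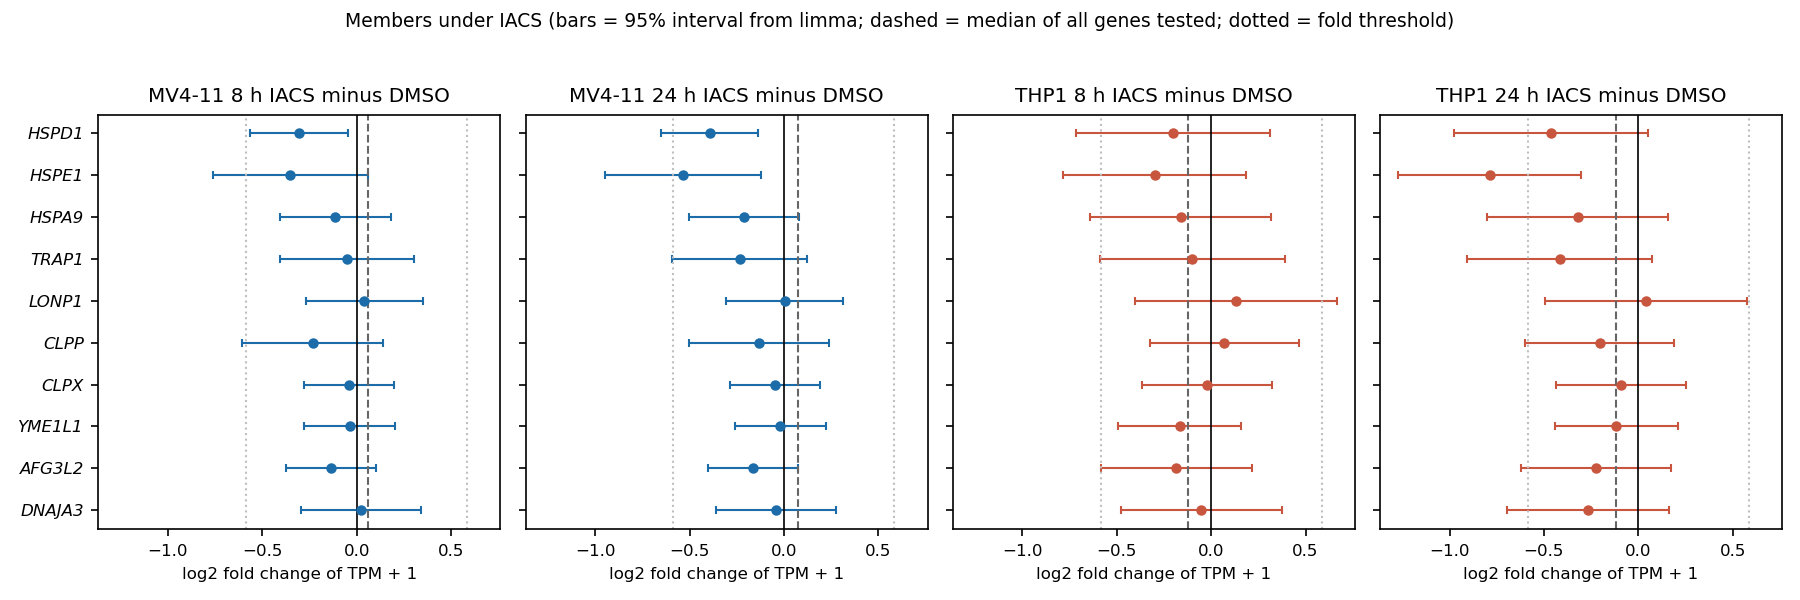
Log2 fold change of TPM + 1, IACS minus DMSO, of each member (x axis) in the 4 comparisons, with 95% intervals from limma, a dashed line at the median of all genes tested and dotted lines at the 1.5-fold threshold. *HSPD1* and *HSPE1* have the lowest values in each panel, and in MV4-11 all 10 points lie left of the dashed line.

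Between 8 h and 24 h of IACS, 0 members were called in either line, where limma called 0% of genes in MV4-11 and 0.00718% in THP1. In MV4-11 the log2 differences ran from -0.18 to 0.10, and 0 members had an unadjusted limma p under 0.05 with a lower value, where 0.775% of genes did. In THP1 they ran from -0.49 (*HSPE1*, ± 0.22) to 0.05 (*YME1L1*), and *HSPE1* was the member lower by that rule, where 2.30% of genes were. Its limma adjusted p was 0.98, and 0.025 with the replicate block, at a log2 difference under the fold threshold. With the block and no fold threshold, 227 of all 13928 genes were lower at a limma adjusted p under 0.05. The median of the members was -0.19 in THP1 beside 0.007 over all genes, and 9 of 10 lay below the latter. In MV4-11 it was -0.05 beside 0.02.

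Whether the response differed between the lines was tested with an interaction term. At both times 0 of the 10 members were called, where 0.00796% of 12555 genes were called at 8 h and 0.00796% at 24 h. The lowest unadjusted limma p was 0.25 (*CLPP*) at 8 h and 0.39 (*DNAJA3*) at 24 h. The difference for *HSPE1* at 24 h, THP1 minus MV4-11, was -0.25 ± 0.31 with a 95% interval from -0.91 to 0.40, and for *HSPD1* it was -0.07 ± 0.28, from -0.66 to 0.52. Both intervals include 0, and both also include differences as low as the 24 h responses of the gene, so neither was excluded. Over the alternatives other than left-out libraries, the difference for *HSPE1* at 24 h ran from -0.26 to -0.024.

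The largest differences of members lay between the untreated lines. With DMSO, *LONP1* stood at 100, 123 and 117 TPM in MV4-11 and at 62.9, 61.5 and 47.3 TPM in THP1. *CLPP* stood at 49.5, 57.9 and 61.8 TPM in MV4-11 and at 28.7, 27.9 and 23.4 TPM in THP1. Neither gene overlapped between the lines. The log2 fold change, THP1 minus MV4-11, was -0.98 ± 0.22 for *LONP1* (limma adjusted p = 0.00089) and -1.05 ± 0.18 for *CLPP* (limma adjusted p = 9.3e-05). These were the 2 members called lower, and 0 were called higher. Of all 14915 genes, 17.3% were called lower and 20.9% higher, so the count of members called is near the background.

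*CLPX* stood at 29.7, 28.7 and 28.3 TPM in MV4-11 and at 24.6, 24.0 and 19.1 TPM in THP1, with no overlap. Its log2 fold change was -0.35 ± 0.13 with a limma adjusted p of 0.030, under the fold threshold. Without the third THP1 DMSO library it was -0.24, with a limma adjusted p of 0.15. With all libraries and no fold threshold, 3600 of all 14915 genes were lower in THP1 at a limma adjusted p under 0.05. In all, 4 members did not overlap and were lower in THP1 (*TRAP1*, *LONP1*, *CLPP* and *CLPX*), where 30.8% of genes were. *HSPD1* averaged 346 ± 28.8 TPM in MV4-11 and 362 ± 82.0 TPM in THP1, and *HSPE1* 113 ± 8.16 and 144 ± 28.5 TPM, and both overlapped. The order of levels with DMSO was *HSPD1* first in both lines. In MV4-11 *HSPA9*, *LONP1* and *HSPE1* followed between 113 and 129 TPM, with *HSPE1* and *LONP1* closer than their spread, and in THP1 *HSPE1* and *HSPA9* followed at 144 and 133 TPM, also within their spread.

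**Figure D4:**
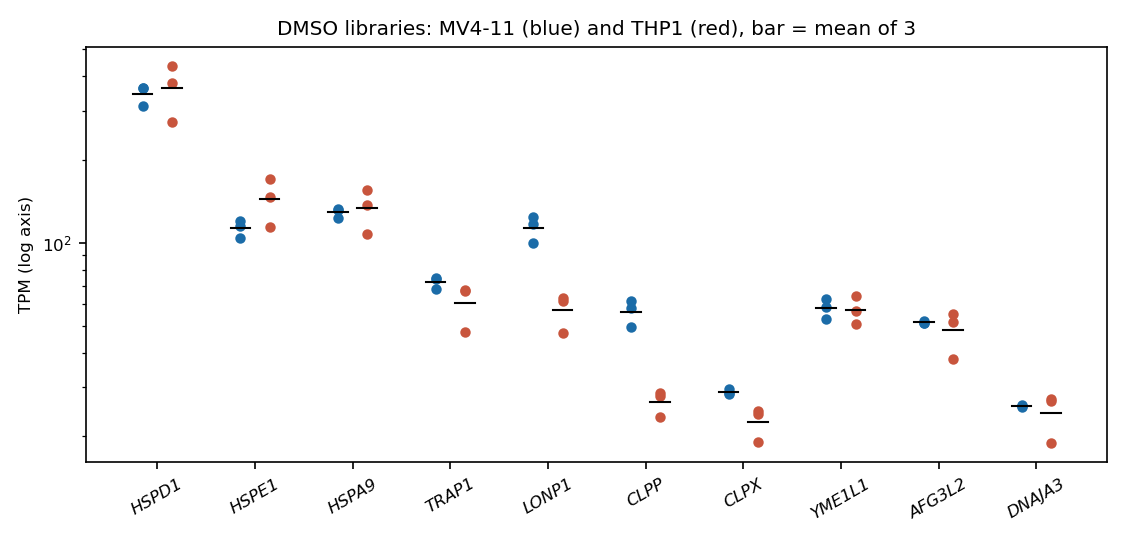
TPM on a log axis of the 10 members in the 3 DMSO libraries of MV4-11 (blue) and of THP1 (red), with a bar at each mean. *LONP1* and *CLPP* do not overlap between the lines, with 100 to 123 against 47.3 to 62.9 TPM and 49.5 to 61.8 against 23.4 to 28.7 TPM, while *HSPD1* overlaps.

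The likeness of the members was measured across the 18 libraries. After each group mean was subtracted, Pearson's r over the 45 pairs of members ran from 0.63 to 0.96 with a median of 0.89 on the deposited scale, and from -0.35 to 0.90 with a median of 0.60 with size factors. All values of a library share the denominator of TPM, so this is a description. With size factors r was below 0 for 13 pairs, all of *CLPX* or *YME1L1* with another member. Ranked by r with a member among 12554 genes, the other members stood between places 42 and 8803 as deposited and between 40 and 10266 with size factors. *HSPD1* and *HSPE1* had r of 0.87 as deposited and 0.63 with size factors. Among the genes ranked for *HSPD1*, *HSPE1* was at place 1371 as deposited and 547 with size factors, and *HSPA9* at 85 and 64. Among those ranked for *HSPE1*, *HSPD1* was at place 1929 and 1511, and *HSPA9* at 114 and 61. The genes most like *HSPD1* as deposited were *PAICS* (0.99), *KDM1A* (0.99), *SET* (0.98), *NKG7* (0.98) and *IPO5* (0.98). With size factors they were *PAICS* (0.96), *SFXN1* (0.93), *GTPBP4* (0.93), *LTV1* (0.92) and *DDX27* (0.92).

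Other genes of mitochondrial protein handling are given beside the members, and differences between lists were not tested. Of 13 other mitochondrial chaperones and cofactors, 13 other proteases and peptidases and 23 import genes, limma called 0 in either line at either time. With an unadjusted limma p under 0.05 and the fold threshold, only *TIMM10* passed, in THP1 at 24 h. By that rule 242 of all 13928 genes were lower there and 65 were higher. *TIMM10*, a chaperone of the intermembrane space, was the import gene with the lowest value at 24 h in both lines, at -0.39 ± 0.18 in MV4-11 and -0.71 ± 0.24 in THP1. The median of the import genes relative to all genes at 24 h was -0.29 in MV4-11 and -0.17 in THP1, with 19 and 20 of 23 below the all-gene median. The highest import genes were *GFER* (0.27 ± 0.16) in MV4-11 and *TOMM20* (0.02 ± 0.13) in THP1. Among the chaperones and cofactors, the table's *PHB* (-0.39 ± 0.16) was lowest and *BCS1L* (0.12 ± 0.15) highest in MV4-11, and *BCS1L* (-0.52 ± 0.25) was lowest and *GRPEL2* (0.06 ± 0.18) highest in THP1. The relative medians of that list were -0.09 and -0.23. Among the proteases *IMMP2L* was lowest in both lines (-0.29 ± 0.11 and -0.40 ± 0.21), with *SPG7* (0.24 ± 0.16) highest in MV4-11 and *OMA1* (0.12 ± 0.16) in THP1, and the relative medians were -0.07 and -0.14.

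The cytosolic chaperones and the stress regulators follow. Of 20 cytosolic chaperones, all 20 were below the all-gene median in MV4-11 at 24 h and 19 in THP1, with relative medians of -0.38 and -0.25 and 0 limma calls. *HSP90AA1*, the inducible HSP90, was the lowest in both lines, at -0.64 ± 0.15 in MV4-11 and -0.59 ± 0.20 in THP1, and the highest were *HSPB1* (0.01 ± 0.22) and *HSPA1A* (0.01 ± 0.16), the latter a near copy of *HSPA1B*. Of 13 stress regulators tested, 8 lay above the all-gene median at 24 h in each line, with relative medians of 0.05 and 0.11 and 0 limma calls. *DDIT3*, which encodes CHOP, was highest in MV4-11 at 0.55 ± 0.19, and *ATF4* was highest in THP1 at 0.54 ± 0.24. *ATF4* stood between 166 and 190 TPM with DMSO and between 239 and 261 TPM after 24 h in MV4-11, with no overlap. Of all 13542 genes tested, 2632 likewise had all 24 h values above DMSO in MV4-11. In THP1 it stood between 116 and 158 and between 138 and 243 TPM, with overlap. At 8 h *DDIT3* had 0.60 ± 0.19 in MV4-11 and 0.71 ± 0.28 in THP1. The lowest were *TFAM* (-0.29 ± 0.12) in MV4-11 and *SIRT3* (-0.35 ± 0.16) in THP1. These lists share the DMSO libraries with the members.

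**Figure D5:**
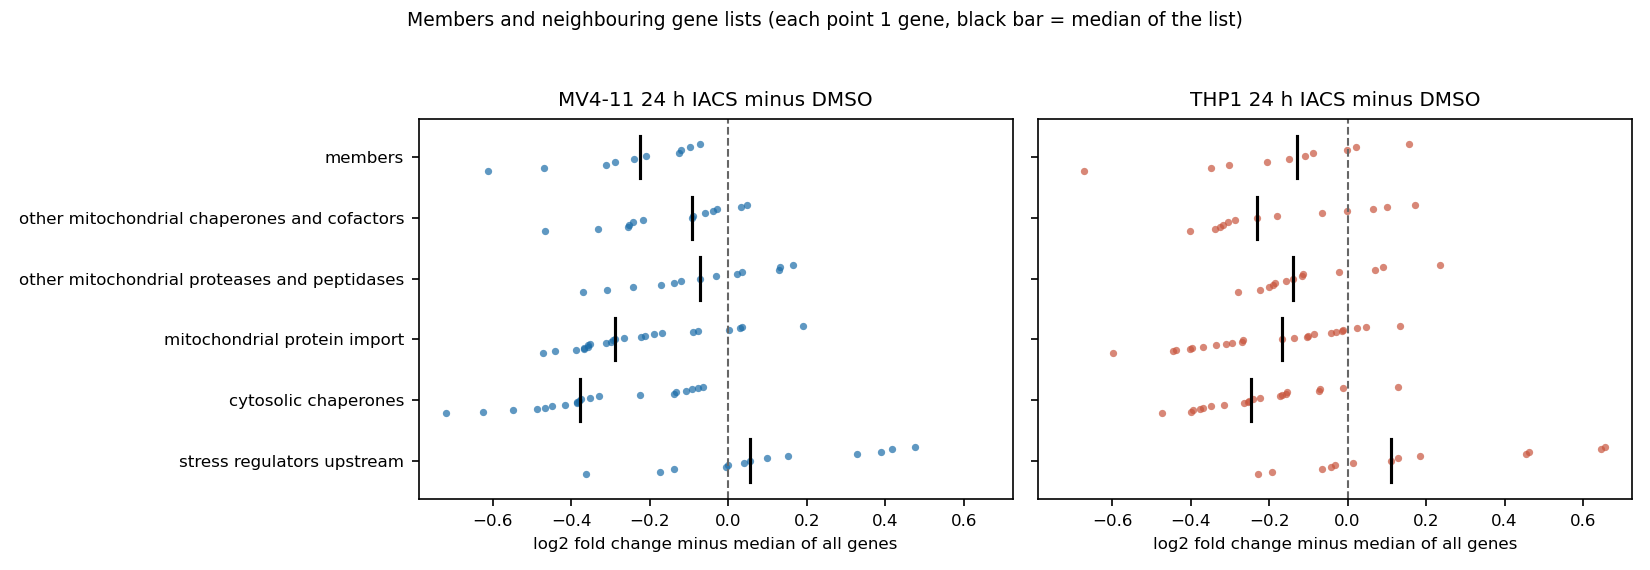
Log2 fold change at 24 h, IACS minus DMSO, minus the median of all genes tested (x axis, dashed line at 0), for the members and 5 other gene lists in MV4-11 (left) and THP1 (right), with 1 point per gene and a bar at the median of the list. The members' bars lie at -0.23 and -0.13, those of the cytosolic chaperones at -0.38 and -0.25, and those of the stress regulators at 0.05 and 0.11.

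Between the lines with DMSO, limma called 4 of the 13 other chaperones and cofactors lower in THP1 (*GRPEL1*, *HSCB*, *PHB2* and *TIMM44*), 1 of 13 proteases (*MIPEP*) and 5 of 23 import genes (*TIMM10*, *TIMM13*, *TIMM22*, *TIMM50* and *TOMM40*), and none of the genes of these lists higher. *PHB2*, a subunit of the prohibitin scaffold of the inner membrane, averaged 222 ± 6.39 TPM in MV4-11 and 66.9 ± 7.54 TPM in THP1. *GRPEL1*, the nucleotide exchange factor of mortalin, averaged 41.8 ± 0.828 and 22.5 ± 3.27 TPM. Of the cytosolic chaperones *BAG3*, *HSPB1* and *HSPH1* were called higher and *HSPA1A* lower, and of the stress regulators *DDIT3* was called higher and *CEBPG* lower. These counts stand beside the 17.3% of all genes called lower and 20.9% called higher.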

How the data were processed

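RNA of 18 libraries of MV4-11 and THP1 cells was made into libraries by TruSeq RNA Sample Prep v2, which does not mark strand, and sequenced in pairs. Per the labels and the methods of the study, reads were aligned to GRCh38, and the deposited TPM per gene come from CLC Genomics Workbench (v20). The authors' annotation release and strand setting were not given in the sources used here. The table held 45372 symbols and 0 columns of other samples. Groups came from the labels.

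Genes averaging 1 TPM or more were tested on log2(TPM + 1) with limma 3.58.1 (variance trend, R 4.3.3), with 9 libraries per line, or all 18 between lines. limma stood in for the Kruskal-Wallis and Dunn's tests of the study, and p-values were adjusted by Benjamini and Hochberg over all genes tested. The fit was checked on simulated data. Replicate numbers, which the labels give without saying what they share, were taken to pair libraries where every same-numbered pair correlated above 0.1 in its deviations from the group means. That held for THP1 24 h and DMSO (0.15 to 0.32), THP1 24 h and 8 h (0.18 to 0.36) and MV4-11 24 h and 8 h (0.11 to 0.44). It did not hold for the other 3 comparisons with DMSO, of which MV4-11 24 h ran from 0.066 to 0.44. The cut of 0.1 was not tested. Within a line the block was fitted over all 9 libraries, so in THP1 it also covered the 8 h and DMSO pairs. Whole reads, within 0.02 of an integer, were recovered for 99.9% of 14915 genes, with gene lengths from GENCODE or, where these gave none, a search over lengths. Coordinates are from GENCODE v44 and promoter windows from RefSeq, both GRCh38.

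The members and lists were chosen with earlier results of these data known. All 10 members are named. From the other lists of protein handling, genes called in any comparison and the highest and lowest at 24 h in each line are named. The 5 genes most like *HSPD1* are named too, and *HSPE1-MOB4*, the only near copy sought that was among the symbols measured. *DDIT3* at 8 h and *PHB2* and *GRPEL1* levels were added after their values were seen. Marker and noncoding RNA lists are given by their summed levels or medians. Levels of *LYZ*, *CD33* and *ITGAM* with DMSO were added after they were seen. Myeloid markers were *PTPRC*, *SPI1*, *CD33*, *LYZ*, *CSF1R*, *CEBPA*, *ITGAM* and *MPO*. Alternatives were another pseudocount, other filters, other scalings, a replicate block, other tests and leaving out each library. Those with voom on recovered reads, leaving out libraries under the block with scaling, and Dunn's test without the Kruskal-Wallis condition, were added after the data were seen. Markers of other cells included *CD3E*, *HBB* and *EPCAM*, and some others are not reported here.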

Additional observations from a re-analysis of the deposited data

How the results depend on the processing

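Of 244 counts of called members under the alternatives, 233 stayed within 1.5 times the count reported, among them 3 in place of 2 between the lines with no fold threshold, where *CLPX* was added. Of 214 medians, 206 moved by less than the spread between replicates. The count was 1 member, *HSPE1*, in place of 0 in MV4-11 at 24 h without the 5 noncoding RNAs, with the replicate block together with size factors, and with limma voom on recovered reads with the replicate block. It was 1 in place of 0 in THP1 at 24 h with size factors, without the 5 noncoding RNAs, with the replicate block, with the block and size factors, with voom with and without the block, with unadjusted p, and by Dunn's test alone. With the replicate block *HSPE1* in THP1 at 24 h had -0.79 (limma adjusted p = 0.0018). The block alone changed no other count of calls. In the 3 comparisons with DMSO where the numbers were not shown to pair the libraries, the lowest correlation of a pair was 0.034 for MV4-11 at 8 h, 0.066 for MV4-11 at 24 h, and 0.044 for THP1 at 8 h. Over all comparisons a library correlated best with its own number in 13 and 15 of 18 cases. Under the block with size factors, leaving out each of 9 libraries kept the *HSPE1* call in THP1 9 times and in MV4-11 1 time, without the third 24 h library.

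The median of the members relative to all genes moved with no filter to -0.094 in THP1 at 8 h, to -0.24 in THP1 at 24 h, and to 0.037 and -0.049 for the differences in response at 8 h and 24 h, where the latter turned from 0.11. Between the lines it moved to -0.062 with a mean of at least 10 TPM. Leaving out libraries it ran from -0.049 to 0.081 in THP1 at 8 h, the highest without the third 8 h library, from -0.16 to -0.059 between the lines, from -0.35 (without the third 24 h library) to -0.16 in MV4-11 at 24 h, where -0.23 was reported, from -0.18 (without the same library) to -0.023 between its 24 h and 8 h, where -0.068 was reported, and from 0.11 to 0.23 for the difference at 8 h. The cause was not tested. No call of a member was lost or turned under these alternatives. With 3 libraries a group, leaving out 1 left 2.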
